A study of Mus musculus with 12 samples.

Results

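The 8 hypoxia arrays of the series, out of 12 arrays in all, were compared by replicate number: the 4 arrays labelled replicate 2 against the 4 labelled replicate 1, paired by transfection. All 8 held RNA of TRAMP-C cells, which the labels describe as wild-type cells taken from the prostate tumour of male TRAMP mice of the C57BL6 strain. In that model a viral T antigen transgene, driven by the probasin promoter, acts in prostate epithelium. In each replicate, 1 array stood for cells nucleofected with pcDNA, the empty vector (control below), and the other 3 for cells given the FOXA2 plasmid, the HIF-1a plasmid or the 2 together (FOXA2+HIF-1a). All cells were kept at 1% oxygen for 12 h, starting 48 h after nucleofection, and 500 ng of total RNA was amplified for Illumina Mouse-6 BeadChips. The series was made to examine how HIF and FOXA2 act together in neuroendocrine prostate tumours. Transfections were done in duplicate, per the labels, but whether the duplicates were grown as separate cultures is not said, so the spread that p-values rest on may be technical. The labels give no cell density, passage number or medium.

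Several programmes are known to follow the state of a culture. The co-activators YAP and TAZ, with TEAD factors, switch on genes such as Ccn1 and Ccn2 in spread, sparsely plated cells and are held out of the nucleus in crowded ones. SREBP factors raise sterol and fatty acid enzymes when membrane sterol is low, MYC drives the factors that assemble ribosomes, and epidermal cells that stop dividing build a cornified envelope from small proline-rich proteins encoded side by side in the epidermal differentiation complex. Mesothelium, the lining of body cavities, makes Msln and several uroplakins.

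The labelled cell type was checked against marker genes. Of the 15 markers of a prostate epithelial line, 9 had a named probe here, and Krt18, Krt7 and Krt5 were not detected on any of the 8 arrays. Krt8 was dim, at log2 intensities of 5.19 to 5.93, Krt19 lay at 8.31 to 8.76, and Vim, the mesenchymal intermediate filament, at 12.49 to 13.86. Foxa2 and Hif1a did not differ by call between replicates (0.33 ± 0.31, adjusted p = 0.496, and -0.26 ± 0.22, adjusted p = 0.459), and neither did Siah2 (0.39 ± 0.14, adjusted p = 0.0956), the ubiquitin ligase of the study's title. Each difference is log2 of replicate 2 minus replicate 1 over 4 pairs, with its standard error after the ± sign. Single pairs of the 2 transfected genes did differ. Foxa2 was higher by 1.72 in the FOXA2 pair, against -0.31, -0.23 and 0.17 in the control, HIF-1a and FOXA2+HIF-1a pairs. Hif1a differed by -1.20 in the FOXA2+HIF-1a pair, against 0.01, 0.22 and -0.06 in the control, FOXA2 and HIF-1a pairs.

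Some arrays stood apart. The arrays' mean intensities lay between 298 and 559, the brightest being FOXA2+HIF-1a replicate 1. On HIF-1a replicate 1, 88 genes lay more than 2-fold below every other hypoxia array, and of the 29 of these with another detected probe, 1 was low there too. FOXA2+HIF-1a replicate 1 had 72 genes more than 2-fold above every other array, and FOXA2+HIF-1a replicate 2 had 29 below and 8 above. The control and FOXA2 arrays had 0 such genes. By pair, 154 genes differed past 2-fold in the control pair, 267 in the FOXA2 pair, 559 in the HIF-1a pair and 604 (6.4% of genes tested) in the FOXA2+HIF-1a pair. The 2 slides also divide the arrays: replicate 1 of control, FOXA2 and HIF-1a was on slide 1, and the other 5 hypoxia arrays were on slide 2.

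Over all genes, the replicates differed widely. Of 9432 genes tested, 1573 (16.7%) were called at an adjusted p under 0.05 by limma, 812 higher in replicate 2 (8.61%) and 761 lower (8.07%). Of these, 78 higher and 108 lower genes passed 2-fold, and 1559 moved the same way in all 4 pairs. The median difference of all genes was 0.02. Called genes whose replicates did not overlap numbered 1340, against 2173 (23.04%) of all genes. The count depended on which pairs entered: it was 674 without the control pair, 470 without the FOXA2 pair, 1119 without the HIF-1a pair, 1912 without the FOXA2+HIF-1a pair, and 2679 with the control and FOXA2 pairs alone. All 1573 genes kept their direction in each of these fits. The fits reused pairs from which those genes were called, so this was largely set by the choice of genes. The same holds for the 1559 that moved alike in all 4 pairs and the 1340 without overlap, since calling favours such genes. It also holds for lack of overlap in called genes named below. Of the 1573, 441 were called in all 4 fits that left out 1 pair. Called genes named below that lost their call in at least 1 of these fits are marked with an asterisk. List counts given below for a fit without 1 pair follow in part from that fit's count over all genes, which changed too. They are to be read beside it. For the fit over all 4 pairs, the shares to set beside a list are 8.61% higher and 8.07% lower.

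In the control, FOXA2 and HIF-1a pairs, replicate and slide cannot be told apart, but both FOXA2+HIF-1a arrays were on slide 2. The 3 pairs across slides gave 1912 called genes (20.3%), and 1624 of them (84.9%) had the same sign in the pair within slide 2, against 63.5% of all genes. Their median difference was 0.56 for the 962 higher and -0.59 for the 950 lower genes across slides. Within slide 2 it was 0.52 and -0.44. Between the normoxia array on slide 2 and the mean of those on slide 1, which differ in transfection too, 3 of 9432 genes differed past 2-fold (0.0318%), and the genes called higher and lower between replicates had medians of 0.02 and -0.03 there. With slide as a block the difference comes from the FOXA2+HIF-1a pair alone. That fit called 1256 genes, 596 of them among the 1573 (37.9%), and 1564 of the 1573 kept their direction. The FOXA2+HIF-1a pair had also been used to call the 1573, so this shared direction was largely set by the choice of genes. It is no separate test of the differences within a slide. The p-values behind the 1256 calls rest on how alike the other 3 pairs were, not on a spread within slide 2. Only the 1912 genes called across slides were chosen without that pair.

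**Figure D1:**
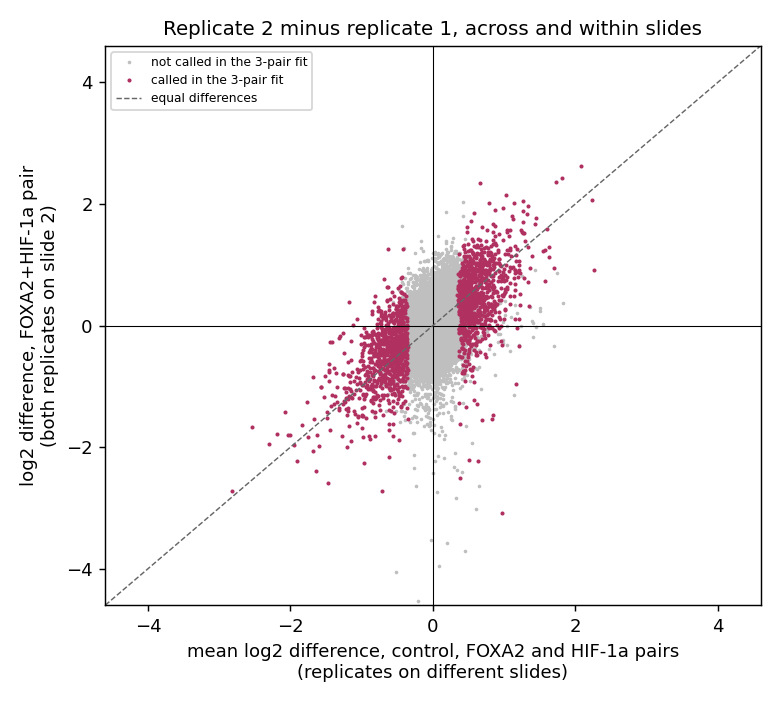
Each point is 1 gene: the x axis is its mean log2 difference (replicate 2 minus replicate 1) in the control, FOXA2 and HIF-1a pairs, whose replicates were on different slides, and the y axis its log2 difference in the FOXA2+HIF-1a pair, within slide 2. Of the 1912 genes called across slides (dark points), 1624 lie on the same side of 0 on both axes.

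Among the 15 named genes with the largest decreases were cornified envelope genes (Lce1g, Sprr2h, Ivl, Crct1 and Lce3b) and the mesothelial genes Lrrn4 and Upk3b. Lce1g, a late cornified envelope gene, had log2 intensities of 8.46 in control, 8.06 in FOXA2, 7.88 in HIF-1a and 7.60 in FOXA2+HIF-1a cells of replicate 1, and 5.90, 4.97, 5.08 and 4.88 in replicate 2. Every replicate 1 array lay above every replicate 2 array. The difference was -2.79 ± 0.12 (adjusted p = 0.000121, limma), but the gene was detected on 1 of the 4 replicate 2 arrays, so its size depends on signal at background on the other 3. Sprr2h, a small proline-rich protein gene, went from 10.30, 10.11, 10.15 and 9.81 to 8.08, 7.81, 7.75 and 7.87 in the same order of transfections (-2.21 ± 0.12). Ivl, which encodes involucrin, the scaffold of the envelope, went from 9.45, 9.31, 9.35 and 9.27 to 7.70, 7.41, 7.29 and 7.05 (-1.99 ± 0.12, 3.96-fold). Its other detected probe gave -1.60. Crct1 was detected on all 4 replicate 1 arrays and none of replicate 2, and was at least 2.03-fold lower. The same bound was at least 1.84-fold for Lce3b and at least 2.15-fold for Lce3c, late envelope genes both.

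Ivl, Lce1g and Sprr2h lie side by side with the other genes of the epidermal differentiation complex. Of its 13 members tested, a set put together after values were seen, 9 were lower and 1 higher, with a median of -1.05. Members had to be detected on 2 or more of the 8 hypoxia arrays. Lce1g, Crct1, Lce3b and Lce3c met this only through replicate 1, where they were high. The count of lower members and the median therefore rest in part on that filter and on signal at background. The exception was Sprr2e, at 9.01, 7.71, 8.48 and 8.92 in replicate 1 and 9.78, 9.43, 9.44 and 9.83 in replicate 2 (1.09 ± 0.17). Sprr2 genes are near-identical copies, so the split between Sprr2h and Sprr2e is uncertain. Envelope genes outside the complex were mixed. Krt10* (-0.55) and Ppl* (-0.71), which encode the suprabasal keratin and periplakin, were lower. Anxa8 (0.90 ± 0.13) and Cdsn* (0.52), encoding an annexin and corneodesmosin, were higher, and Krt16, a keratin of activated keratinocytes, was at least 1.64-fold higher. Over the cornified envelope list, 5 of 15 members were lower and 3 higher (median -0.20), and 2 were lower and 2 higher without the control pair or without the FOXA2 pair. That median was -0.44, -0.31 and -0.19 in the control, FOXA2 and HIF-1a pairs and 0.14 within slide 2, so its direction was not held there.

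Genes known from mesothelium were among the lower ones too. Msln, which encodes mesothelin, was 9.35, 9.30, 9.59 and 9.44 in replicate 1 and 7.90, 7.79, 8.09 and 7.92 in replicate 2, with no overlap (-1.50 ± 0.10, 2.83-fold, adjusted p = 0.000359, limma). Upk3b, a uroplakin, stood at 10.52, 10.36, 10.68 and 11.21 against 8.82, 8.93, 9.0 and 9.23 (-1.70 ± 0.12), and its 2 other probes gave -1.69 and -1.62. Lrrn4 fell by 2.09 ± 0.15 and Upk1b by 1.11 ± 0.13, and the membrane glycoprotein gene Gpm6a by 0.91 ± 0.12. Of the 12 tested members of a mesothelial list, also drawn up after values were seen, 5 were lower and 1, Efemp1*, was higher. The other 6, among them Krt19 (0.16) and Bnc1 (0.09), were not called. In RNA of whole cultures, fewer cells of a kind and less RNA per cell cannot be told apart.

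**Figure D2:**
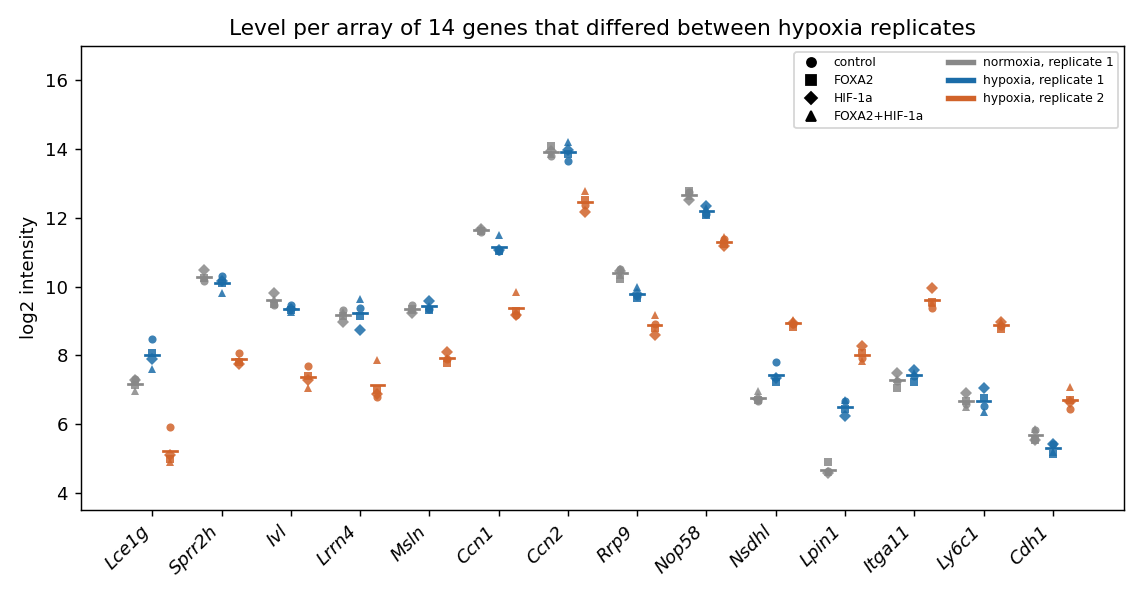
Log2 intensity (y axis) of 14 genes on each array, in normoxia (grey), hypoxia replicate 1 (blue) and hypoxia replicate 2 (orange), with symbols for the transfection and a bar at the mean of 4 arrays. The hypoxia replicates do not overlap for any of the genes drawn. Lce1g was detected on 1 of the 4 replicate 2 arrays.

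Epithelial and mesenchymal genes were called in both directions. Cdh1, encoding E-cadherin, was 5.42, 5.11, 5.42 and 5.19 in replicate 1 and 6.42, 6.69, 6.63 and 7.08 in replicate 2 (1.42 ± 0.16, 2.67-fold). Its replicate 1 values were as dim as those of Krt8, so the size of this difference depends on signal near background. Pkp2, a desmosomal plakophilin, was higher by 0.72 ± 0.12 and Krt14, a basal keratin, fell by 0.89 ± 0.12. In all, 7 of 21 epithelial genes were higher and 3 lower (median 0.06). The same counts were 2 and 2 without the control pair or without the FOXA2 pair, and 4 and 3 without the HIF-1a pair. Among 30 mesenchymal genes 4 were higher and 6 lower (median -0.11), against 3 and 3 without the control pair or without the FOXA2 pair. In the fit over all pairs, 8.61% of all genes were higher and 8.07% lower. Snai2, a repressor of Cdh1, was higher (0.73 ± 0.10), as was Mmp2 (1.02 ± 0.11), while Zeb2, another such repressor, fell by 0.73 ± 0.11 and Thy1 by 0.78 ± 0.11. Cdh2*, encoding N-cadherin, fell by 0.62 ± 0.16. Of the 7 luminal and androgen-regulated genes tested 0 were called by limma (1 at an unadjusted p under 0.05), and of the 11 Notch pathway genes 0 (2 at an unadjusted p under 0.05). Eno2*, a neuronal enolase that also responds to hypoxia, was the 1 of 7 neuroendocrine markers called (0.64 ± 0.14).

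The basement membrane and collagen-binding genes held 2 of the largest single differences. Nid2, the nidogen that links laminin to collagen IV, went from 9.12, 8.79, 9.23 and 9.16 to 7.06, 7.21, 7.01 and 7.19 (-1.96 ± 0.13, 3.88-fold). Itga11, an integrin subunit for fibrillar collagen, went the other way, from 7.41, 7.21, 7.57 and 7.47 to 9.36, 9.55, 9.96 and 9.53 (2.19 ± 0.12, 4.55-fold), and its other probe gave 1.96. Col4a1 fell by 0.86 ± 0.11 and Col4a2* by 0.54 ± 0.14. Col1a1 (0.14) and Col3a1 (0.27) were not called. Of 23 collagen and laminin genes, 4 were lower and 1 higher, where 8.07% of all genes were lower and 8.61% higher.

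Of the 27 targets of YAP and TAZ tested, 9 were lower in replicate 2 and 1 was higher (median -0.27). Ccn1, a secreted matrix protein, was 11.03, 11.04, 11.07 and 11.49 in replicate 1 and 9.16, 9.29, 9.16 and 9.84 in replicate 2. The replicates did not overlap, and the gene fell by 1.79 ± 0.11 (3.46-fold, adjusted p = 0.000221, limma), with -1.96 and -1.90 on its 2 other probes. Its relative Ccn2, or connective tissue growth factor, was 13.64, 13.86, 13.98 and 14.21 against 12.38, 12.51, 12.16 and 12.78 (-1.47 ± 0.13, 2.77-fold). Ankrd1, a muscle ankyrin repeat protein, was 11.65, 11.90, 12.27 and 11.91 against 11.09, 10.87, 10.80 and 11.18 (-0.95 ± 0.16). Fjx1 fell by 1.04 ± 0.10. The higher target was the stress gene Gadd45a* (0.49). Amotl2* (-0.76) and Lats2* (-0.62), which restrain YAP, were among the 9. Axl (-0.25), Ajuba (-0.02) and Tgfb2 (0.14) were not called. The count was 4 lower and 0 higher by limma without the control pair and without the FOXA2 pair alike, 5 and 1 without the HIF-1a pair, and 10 and 2 without the FOXA2+HIF-1a pair. Within slide 2 the median was -0.12.

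The promoters of 4 called targets are shown because they hold the letters read by TEAD factors, the DNA-binding partners of YAP and TAZ. Each runs from 250 bases before to 50 bases after the RefSeq start (GRCm38.p6), in the gene's own direction, with every match to GGAATG, or to CATTCC where it lies on the opposite strand, in capitals. The intervals are chr3:145649936-145650235 (minus strand) for Ccn1, chr19:36119795-36120094 (minus) for Ankrd1, chr9:102717554-102717853 (plus) for Amotl2 and chr13:42301226-42301525 (plus) for Edn1*, the endothelin gene, which fell by 0.64 ± 0.15.
Ccn1: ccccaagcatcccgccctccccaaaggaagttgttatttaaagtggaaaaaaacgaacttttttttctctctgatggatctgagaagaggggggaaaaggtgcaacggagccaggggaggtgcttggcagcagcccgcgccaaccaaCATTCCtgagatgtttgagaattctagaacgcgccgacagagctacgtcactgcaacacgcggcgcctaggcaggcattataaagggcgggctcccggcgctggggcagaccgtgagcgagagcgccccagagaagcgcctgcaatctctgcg
Ankrd1: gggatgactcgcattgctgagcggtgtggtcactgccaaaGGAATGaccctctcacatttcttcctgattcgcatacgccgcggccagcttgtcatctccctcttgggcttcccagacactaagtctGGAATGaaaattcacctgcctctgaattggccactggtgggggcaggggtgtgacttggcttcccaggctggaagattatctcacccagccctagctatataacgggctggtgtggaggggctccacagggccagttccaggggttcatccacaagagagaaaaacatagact
Amotl2: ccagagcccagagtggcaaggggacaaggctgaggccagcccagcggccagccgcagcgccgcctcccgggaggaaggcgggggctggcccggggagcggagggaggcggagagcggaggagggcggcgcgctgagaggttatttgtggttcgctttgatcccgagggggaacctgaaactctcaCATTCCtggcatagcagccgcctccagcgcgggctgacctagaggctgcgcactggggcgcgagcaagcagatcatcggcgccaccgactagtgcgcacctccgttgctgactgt
Edn1: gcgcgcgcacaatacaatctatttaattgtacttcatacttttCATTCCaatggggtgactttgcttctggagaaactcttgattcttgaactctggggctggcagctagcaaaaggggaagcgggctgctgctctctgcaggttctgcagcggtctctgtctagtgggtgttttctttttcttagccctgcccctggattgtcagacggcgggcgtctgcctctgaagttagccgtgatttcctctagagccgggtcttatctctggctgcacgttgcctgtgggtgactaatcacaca
The first base of the match lay 103 bases before the start in Ccn1, 65 before it in Amotl2 and 207 before it in Edn1, and at 210 and 123 bases before it in Ankrd1. Of the 9 promoters found for the 10 called targets, 7 held the motif (77.8%), as did 10 of the 23 found for all tested targets (43.5%) and 14.7% of all 32851 promoters in the table. These shares are a description: such a match is not a bound site, and genes of this list were partly known from TEAD binding.

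Genes of the actin cytoskeleton and of SRF, the factor that reads actin polymerization, included 9 of 33 that fell and 0 that rose by limma (median -0.25). At an unadjusted p under 0.05, 14 were lower and 1 higher. Thbs1, encoding thrombospondin, was 8.89, 8.92, 9.51 and 10.27 in replicate 1 and 8.12, 8.08, 7.85 and 8.82 in replicate 2 (-1.18 ± 0.17), so that only FOXA2+HIF-1a replicate 2 came near replicate 1. Tagln, or transgelin, fell by 1.13 ± 0.21 and Myl9, a myosin light chain, by 0.88 ± 0.11. Actn4, an actinin, fell by 1.06 ± 0.21, with its highest value, 11.02, on the bright FOXA2+HIF-1a replicate 1 array and 8.91 to 9.57 on the other replicate 1 arrays. Actb (-0.19), Vcl (0.21) and Srf itself (-0.48) were not called. The count of lower genes was 5 without the control pair, 4 without the FOXA2 pair, 7 without the HIF-1a pair and 13 without the FOXA2+HIF-1a pair.

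ERK outputs, which report growth factor signalling through MAP kinase, included 13 lower and 1 higher of 28 genes (median -0.51). Dusp6, the ERK phosphatase, was 12.43, 12.41, 12.57 and 12.37 in replicate 1 and 11.61, 11.46, 11.15 and 11.41 in replicate 2, with no overlap (-1.04 ± 0.13, 2.06-fold). Phlda1 fell by 1.40 ± 0.17, Klf6 by 1.15 ± 0.15, the growth factor gene Hbegf by 1.09 ± 0.15 and the receptor gene Epha2 by 0.98 ± 0.12. Etv5 (-0.94) and Dusp5 (-0.90) were also lower. The classical immediate early genes Fos (0.07), Egr1 (-0.23), Jun (-0.14) and Dusp1 (0.08) were not called, while Atf3, a stress-induced factor, was higher (0.74 ± 0.10). The median was -0.32 without the FOXA2+HIF-1a pair, with 13 genes lower, against 8 without the control pair and 9 without the FOXA2 pair, and the range over pairs was -0.25 (control) to -0.52 (FOXA2+HIF-1a).

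Among genes of quiescence, FOXO output and CDK inhibition, 7 of 29 were higher and 2 lower (median 0.19). Trp53inp1, a p53-induced autophagy factor, was 5.89, 6.47, 6.41 and 5.89 in replicate 1 and 7.18, 7.56, 7.88 and 6.66 in replicate 2 (1.15 ± 0.14). Sesn3, a FOXO target that restrains mTORC1, was higher by 1.14 ± 0.21. Its HIF-1a replicate 1 value, 5.11, stood below the 6.10 to 6.37 of the other replicate 1 arrays. Cdkn2b*, encoding p15, was higher by 0.65 ± 0.11, but Cdkn1a (-0.11), Cdkn1b (-0.31) and Ccng1 (-0.01) were not called. Klf2, a quiescence factor, went against the list, from 8.54, 8.89, 8.89 and 8.86 to 7.02, 7.45, 7.43 and 6.27 (-1.75 ± 0.20). Without the HIF-1a pair the list median was 0.11 and 4 genes were higher, and without the FOXA2 pair 2 were. TGF-beta and BMP genes gave 6 lower and 1 higher of 28, with Id1, a BMP target, at -1.26 ± 0.19 and the BMP and activin antagonist Fst at -1.21 ± 0.18. Tgfbi, a TGF-beta-induced matrix protein, was the one higher (1.55 ± 0.14). Without the control pair or without the FOXA2 pair 3 of these genes were lower.

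Cholesterol synthesis was the list with the largest share of higher genes among those of growth and lipid metabolism: 10 of 20 tested were higher, 0 lower by limma (14 and 0 at an unadjusted p under 0.05), and all 20 lay above 0 (median 0.45). Nsdhl, a sterol dehydrogenase, was 7.82, 7.21, 7.35 and 7.35 in replicate 1 and 8.90, 8.83, 8.95 and 9.02 in replicate 2, without overlap (1.49 ± 0.13, 2.82-fold, adjusted p = 0.00101). Its 3 other probes gave 1.17 to 1.47. Pmvk, which acts on mevalonate phosphate, was 7.78, 7.41, 7.92 and 7.49 against 8.49, 8.81, 9.07 and 8.44 (1.05 ± 0.14), and Mvd, the next enzyme, was higher by 0.93 ± 0.13. Fdps*, Lss*, Cyp51*, Insig1* and the regulator gene Srebf2* followed at 0.74, 0.57, 0.61, 0.54 and 0.46. Idi1 (1.19 ± 0.55), Dhcr7 (0.82 ± 0.26) and Sqle (0.39) were not called. The median lay between 0.36 and 0.54 in the 4 pairs and was 0.42 within slide 2. The count was 4 without the control pair, 3 without the FOXA2 pair, 9 without the HIF-1a pair and 11 without the FOXA2+HIF-1a pair, 0 lower in each by limma. A sterol response motif, TCACNCCAC on either strand, was searched in the promoters: 0 of the 21 found for these genes held it, as did 1.24% of all promoters, which says only that these letters are not in those windows.

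Fatty acid synthesis genes included 8 higher and 1 lower of 29 (median 0.36). Lpin1, the lipin phosphatase of glyceride synthesis, was 6.67, 6.43, 6.24 and 6.68 in replicate 1 and 7.93, 8.06, 8.26 and 7.82 in replicate 2 (1.51 ± 0.16, 2.85-fold). Scd1, the stearoyl desaturase, was higher by 0.89 ± 0.14, Acss2, which makes acetyl-CoA from acetate, by 1.01 ± 0.14, Acsl3 by 0.93 ± 0.15 and Elovl6 by 0.78 ± 0.12, although the other Elovl6 probe gave 0.06. Scd2* (0.98) is a close copy of Scd1, so their shares are uncertain. Fasn (0.33), Acly (0.36) and Srebf1 (-0.04) were not called. Without the FOXA2 pair 5 of the list were higher. Fatty acid oxidation gave 5 higher and 1 lower of 28 (median 0.18), the lower one being Pex11a (-1.15 ± 0.11), whose 2 other probes gave -0.77 and -0.05.

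Of 21 genes for lipid uptake and storage, 3 were higher and 2 lower (median 0.08), where 8.61% of all genes were higher and 8.07% lower. Angptl4, a secreted inhibitor of lipoprotein lipase, went from 11.37, 11.11, 11.62 and 11.57 to 9.82, 9.89, 9.48 and 9.17, the clearest decrease of the list (-1.83 ± 0.19, 3.55-fold). The fatty acid transporters Slc27a3 (0.77 ± 0.10) and Slc27a1 (0.68 ± 0.10) were higher. Plin2 (-0.22), Hilpda (-0.20) and Vldlr (-0.04), genes of lipid droplets and lipoprotein uptake, were not called. The enzyme gene Ch25h*, which makes an oxysterol, was higher by 1.09 ± 0.22.

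**Figure D3:**
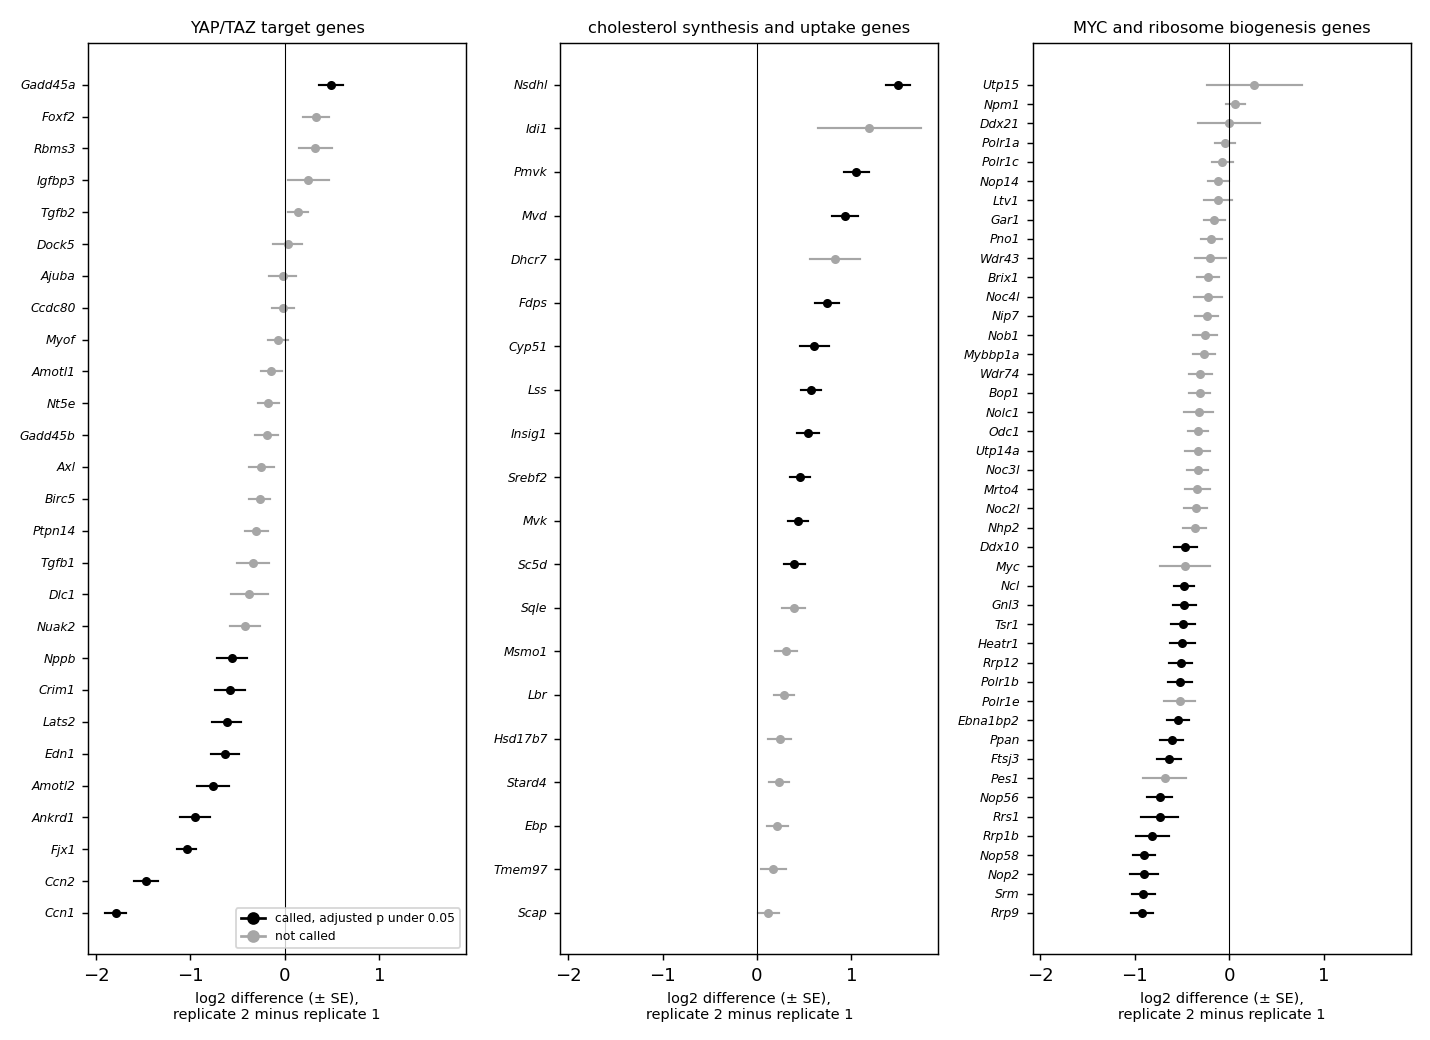
Log2 difference, replicate 2 minus replicate 1, with its standard error (bar) for each tested member of 3 gene lists, black where called. YAP/TAZ targets and ribosome biogenesis genes lean to the left (medians -0.27 and -0.34), and all 20 cholesterol genes lie right of 0.

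Growth genes differed by kind. Among ribosome biogenesis genes 17 of 44 fell and 0 rose by limma (27 and 0 at an unadjusted p under 0.05), with a median of -0.34. Rrp9, which acts in processing of ribosomal RNA, was 9.73, 9.65, 9.79 and 9.98 in replicate 1 and 8.91, 8.79, 8.59 and 9.18 in replicate 2 (-0.92 ± 0.12, adjusted p = 0.00273). Nop58, a core protein of box C/D particles, was 12.12, 12.07, 12.34 and 12.27 against 11.37, 11.23, 11.17 and 11.44 (-0.90 ± 0.12), and the replicates of both genes did not overlap. Srm, spermidine synthase, fell by 0.91 ± 0.12, Nop2 by 0.90 ± 0.15 and Nop56 by 0.74 ± 0.13. Myc itself (-0.47 ± 0.27, adjusted p = 0.269), Npm1 (0.07) and Polr1a (-0.05) were not called. Pair medians ran from -0.28 to -0.52, and the count of lower genes was 7 without the control pair, 5 without the FOXA2 pair, 13 without the HIF-1a pair and 19 without the FOXA2+HIF-1a pair. The E-box CACGTG, which reads the same on both strands and is bound by MYC and other factors, was in 2 of the 15 promoters found for called members (13.3%), 7 of 40 for all tested members (17.5%) and 7.15% of all promoters.

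Cytosolic ribosomal protein genes, by contrast, had 2 higher and 0 lower of 41 by limma (5 and 0 at an unadjusted p under 0.05, median 0.06). Few division genes were called. Of 52 G1/S and replication genes 7 were lower and 1 higher (median -0.03), and 2 of 43 mitosis genes were lower (median -0.13). Both lists lay below or near the 16.7% of all genes called in either direction, where 8.07% were lower. At an unadjusted p under 0.05, 11 G1/S genes were lower and 4 higher, and 10 mitosis genes were lower and 3 higher. The mitosis median was below 0 in every pair. The lower G1/S genes numbered 3 without the control pair, 1 without the FOXA2 pair and 2 without the HIF-1a pair. E2f2 was the clearest of them, at -0.94 ± 0.14, and Rrm2* fell by 0.68, while Pcna (-0.01), Mcm5 (0.02), Top2a (-0.17) and Cdk1 (-0.26) were not called. Replication-dependent histone genes, a set added after values were seen, stood out from these, with 29 of 48 lower and 0 higher by limma (35 and 0 at an unadjusted p under 0.05, median -0.55). H2bc6 was 10.53, 10.68, 10.89 and 10.65 in replicate 1 and 9.36, 9.49, 9.27 and 9.26 in replicate 2 (-1.34 ± 0.12), and H1f2, a linker histone, fell by 1.12 ± 0.13. These genes are near-identical copies with transcripts that mostly lack a poly(A) tail, so the probes' assignment and their priming are uncertain. The count of lower genes was 16 without the control pair, 14 without the FOXA2 pair and 21 without the HIF-1a pair, and within slide 2 the median was -0.44.

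**Figure D4:**
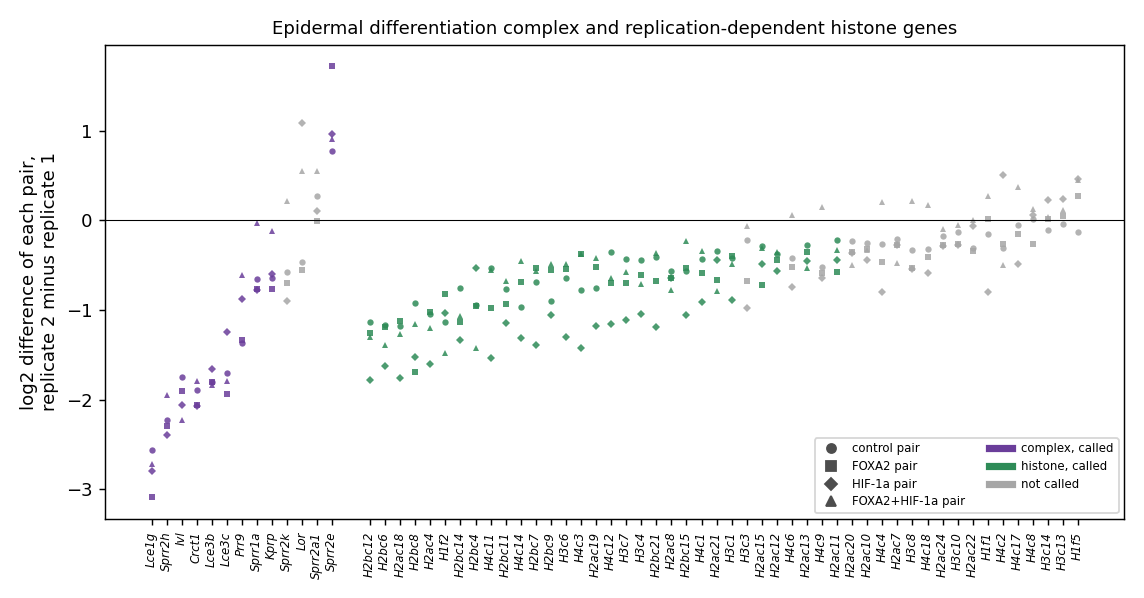
Log2 difference in each of the 4 pairs (symbols) for tested genes of the epidermal differentiation complex (left) and replication-dependent histone genes (right), coloured where called and grey where not. Sprr2e is the 1 called gene above 0.

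Amino acid response genes under ATF4, with the tRNA synthetases, included 10 higher and 1 lower of 35 (median 0.20). Ddit4, an mTORC1 inhibitor that is also a HIF target, was 11.30, 10.88, 11.44 and 11.06 in replicate 1 and 11.95, 11.98, 12.34 and 12.39 in replicate 2 (0.99 ± 0.13). Gpt2, an alanine transaminase, was higher by 0.86 ± 0.10 and the transporters Slc1a4 and Slc6a9 by 0.81 ± 0.13 and 0.78 ± 0.15, while Asns (0.25), Chac1 (-0.15) and Psat1 (0.02) were not called. Eprs, a tRNA synthetase, was lower (-0.81 ± 0.13), but its 2 other probes gave -0.89 and 0.30. The count of higher genes in the list was 5 without the control pair and 4 without the FOXA2 pair. Growth factor genes were split, 5 higher and 5 lower of 28. Igf2 was 9.30, 9.20, 9.77 and 9.47 against 7.68, 7.68, 8.20 and 8.46 (-1.43 ± 0.13, 2.70-fold), and Pdgfc was higher by 0.76 ± 0.11.

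At the same labelled oxygen level, HIF targets outside glycolysis had 9 higher and 1 lower of 38 (median 0.15), and HIF glycolysis genes 2 higher and 0 lower of 17 by limma (3 and 0 at an unadjusted p under 0.05, median 0.13). Aldoc, an aldolase, was 9.0, 8.82, 9.56 and 9.28 in replicate 1 and 9.86, 10.05, 10.41 and 9.77 in replicate 2 (0.86 ± 0.14). Stc1* (0.52) and Bhlhe40* (0.53) were higher, Car9* lower (-0.52), and Vegfa (0.23), Pgk1 (-0.17), Ldha (0.17) and Bnip3 (0.15) were not called. Apart from Ddit4, each HIF target called outside glycolysis lost its call in at least 1 fit without a pair, and without the control pair 1 was higher and 0 lower by limma. Sox9*, a developmental factor that the study followed, was higher by 0.39 ± 0.11 (adjusted p = 0.0438), but its call was lost without any 1 of the 4 pairs (highest adjusted p = 0.170). Hes6 (0.54 ± 0.18, adjusted p = 0.0780) and Kdm3a (0.25 ± 0.12, adjusted p = 0.180), the other genes that it followed, were not called.

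Antioxidant genes under NRF2 included 9 higher and 0 lower of 26 by limma (11 and 0 at an unadjusted p under 0.05, median 0.26). Gsta4, a glutathione transferase for lipid peroxidation products, was 6.92, 6.63, 7.02 and 6.47 in replicate 1 and 8.04, 7.95, 8.37 and 8.52 in replicate 2 (1.46 ± 0.16, 2.75-fold), and Gstm1 was higher by 1.26 ± 0.13. The usual reporters of NRF2, Nqo1 (-0.04), Srxn1 (0.03), Gclm (-0.05) and Hmox1 (-0.11), were not called. Without the control pair or without the FOXA2 pair, 3 of the list were higher. Of the heat shock genes 1 was higher and 3 lower out of 19, where 8.61% of all genes were higher and 8.07% lower. The higher one, Hspa1a, was 5.01, 5.09, 5.50 and 5.24 against 6.70, 6.53, 7.0 and 6.48 (1.47 ± 0.12), and was detected on 2 of 4 replicate 1 arrays. Its near-identical copy Hspa1b gave 0.70 and was not called.

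Inflammatory genes had 9 higher and 2 lower of 32 (median 0.27). Cxcl2, a neutrophil chemokine, was 5.13, 4.47, 4.52 and 4.77 in replicate 1, below background on all 4 arrays, and 7.40, 6.64, 6.87 and 5.68 in replicate 2, so it was at least 2.71-fold higher (adjusted p = 0.00224). Cxcl1 was 10.87, 10.61, 11.13 and 10.88 against 12.16, 12.01, 12.06 and 11.87 (1.15 ± 0.12), and Cxcl10 was higher by 1.17 ± 0.14. Csf1, the macrophage growth factor, fell by 0.80 ± 0.14, and Ccl2 (0.28) and Nfkbia (0.29) were not called. The list had 5 higher genes without the control pair and 3 without the FOXA2 pair. Of 39 interferon-stimulated genes 4 were higher and 1 lower, where 8.61% of all genes were higher and 8.07% lower. Rsad2, Oasl1, Psmb10 and Zbp1 were higher by 0.80 to 1.05, while Isg15 (0.35), Irf7 (-0.09) and Stat2 (0.31) were not called. Of the immune cell markers with a probe, Cd3e, Cd4, Adgre1, Aif1 and Tyrobp were not detected on any of the 8 arrays. Csf1r (0.77), Cd74 (0.51) and Cd14 (0.18) were detected and not called.

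Of 24 p53 targets 6 were higher and 1 lower (median 0.13), where 8.61% of all genes were higher and 8.07% lower. Fas, the death receptor gene, was 6.43, 6.51, 6.81 and 6.39 in replicate 1 and 7.49, 7.60, 7.43 and 7.29 in replicate 2, without overlap (0.92 ± 0.12), and its 2 other probes gave 0.85 and 0.93. Ephx1, an epoxide hydrolase, was higher by 0.84 ± 0.16, while Mdm2 (0.04) and Zmat3 (-0.09), a pair of direct p53 targets, were not called. Among 18 Wnt pathway genes 3 were higher and 2 lower, one of the latter being Axin2* (-0.53), a feedback gene of the pathway. Lysosome genes gave 2 higher and 2 lower of 42, unfolded protein genes 1 and 2 of 19, and oxidative phosphorylation genes 0 and 2 of 37 by limma, the same counts as at an unadjusted p under 0.05 for the last. Of 20 iron genes 2 were higher and 2 lower. Slc40a1, the iron exporter ferroportin, was among the higher ones (0.77 ± 0.12). Trf, transferrin, had the largest decrease of the list (-1.78).

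Markers of other cell types were read over their whole lists. Of 8 endothelial markers with a probe 7 were not detected on any of the 8 arrays, among them Pecam1 and Cdh5, and of 4 adipocyte markers 3, among them Adipoq. Of 8 immune markers 5 were not detected. The summed level of the immune list was 9.27 to 9.56 on log2 in replicate 1 and 9.40 to 10.04 in replicate 2. For the endothelial list it was 8.95 to 9.24 and 9.32 to 9.56, and for the adipocyte list 7.93 to 8.11 and 8.29 to 8.59, both without overlap. These sums take in every marker with a probe, detected or not. In the endothelial and adipocyte lists they thus hold 1 detected gene each, beside signal at background. Replicates also did not overlap for 23.04% of all genes. The adipocyte marker detected, Pparg*, was higher by 0.52 ± 0.12, and the endothelial one, Flt1 (0.43), was not called. The prostate epithelial line markers summed to 13.13 to 13.95 in replicate 1 and 12.71 to 13.10 in replicate 2, with a narrow gap. The brightest of them was Vim, the mesenchymal filament, which weighs most in that sum. It differed by -1.37 in the FOXA2+HIF-1a pair and by -0.01 to -0.08 in the other pairs. By gene, 2 of the 6 tested members of this list were higher and 1 lower (median 0.01), so the sum does not show a fall of epithelial markers. Fibroblast and smooth muscle markers were detected for 8 of 11, with a summed level of 14.70 to 15.22 in replicate 1 and 14.46 to 14.70 in replicate 2. Of these 8, Pdgfrb (0.79 ± 0.14) and Dpt* (0.91 ± 0.19) were higher and Dcn* fell by 0.79 ± 0.17. The part of any such cells in the lists above was not tested.

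Apart from Trf, a member of the iron list, the other genes with large differences given here belong to no list. Ly6c1, a surface protein, was 6.51, 6.75, 7.05 and 6.34 in replicate 1 and 8.84, 8.75, 8.96 and 8.96 in replicate 2 (2.22 ± 0.14, 4.66-fold), the largest increase among called genes. Similar Ly6 genes could share its probe. C1qtnf3, a secreted C1q-related protein, was higher by 1.96 ± 0.18 and Hdc, which makes histamine, by 1.88 ± 0.15. Among the lower genes were Ddx4, a germ cell RNA helicase (-2.33 ± 0.21, 5.01-fold), Rgs16, a regulator of G protein signalling (-1.92 ± 0.15), and Trf, transferrin (-1.78 ± 0.17).

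**Figure D5:**
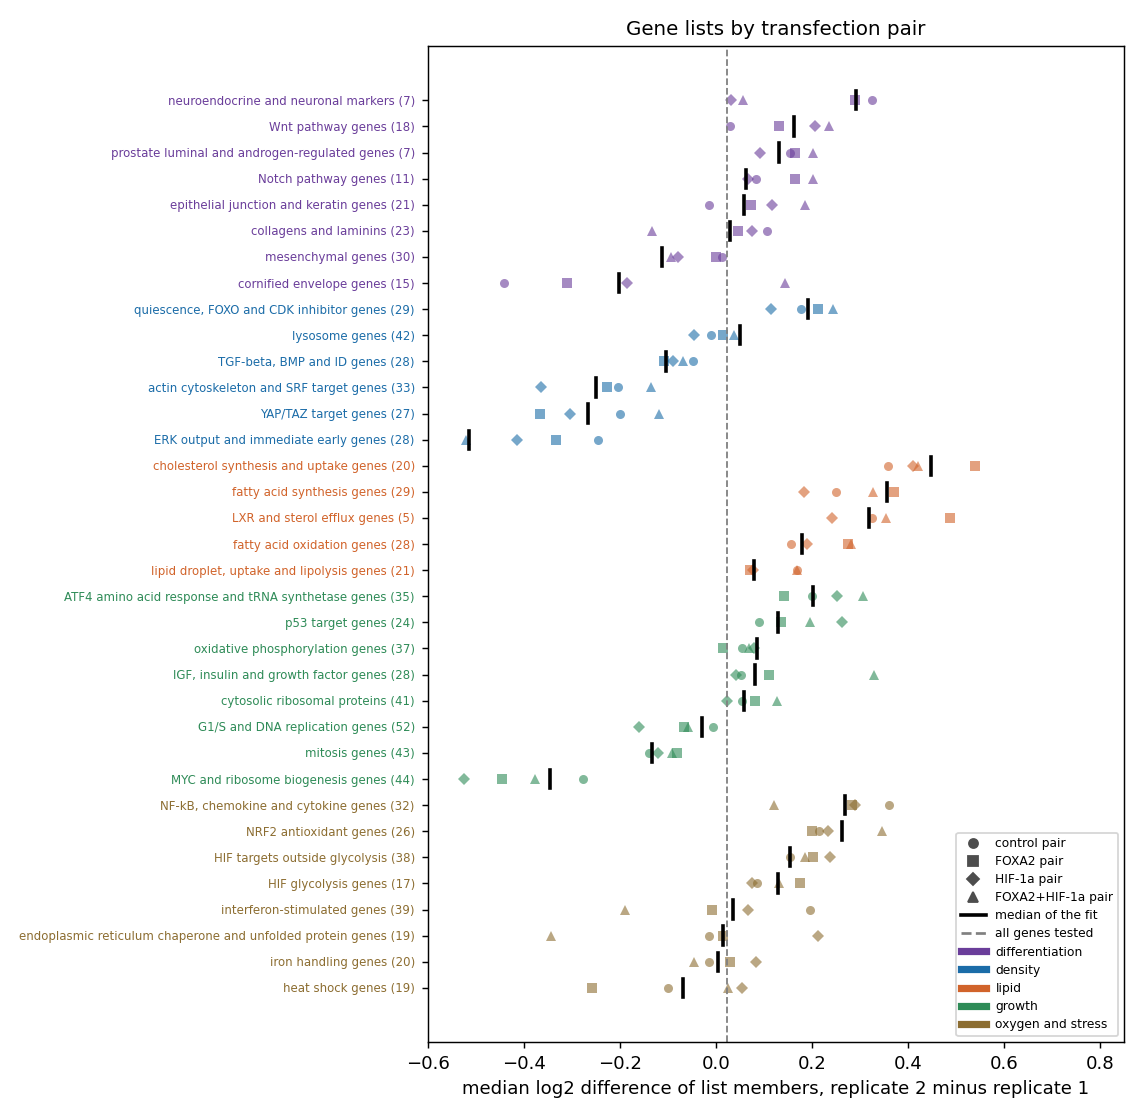
Median log2 difference of the tested members of each gene list (number tested in brackets), replicate 2 minus replicate 1, in each of the 4 pairs (symbols) and in the fit over the 4 pairs (black bar), with the median of all genes as a dashed line. Cholesterol, fatty acid and NRF2 genes lie right of the line in every pair, while YAP/TAZ, actin, ERK and ribosome biogenesis genes lie left of it.

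Normoxia arrays exist for replicate 1 alone, so the normoxia level that belongs to replicate 2 is not known and oxygen and replicate cannot be told apart against it. With that limit, normoxia lay nearer to replicate 1 than to replicate 2 for 650 of the 812 higher and 640 of the 761 lower genes. The order of the 3 means differed by list. All 17 lower ribosome biogenesis genes stood highest in normoxia, lower in replicate 1 and lowest in replicate 2, as did 438 of the 761 lower genes overall. Nop56, for example, had means of 11.77, 10.77 and 10.04. Of the 10 higher cholesterol genes 9 stood lowest in normoxia, and of the 8 higher fatty acid synthesis genes 7, against 423 of 812 overall. Lpin1 had means of 4.67, 6.51 and 8.02. The 9 higher inflammatory genes were unlike these, with 1 of 9 lowest in normoxia. Cxcl1 had means of 11.95 in normoxia, 10.87 in replicate 1 and 12.03 in replicate 2.

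Whether the replicate difference itself depended on the plasmids was tested as an interaction, which left 1 residual degree of freedom. Every called gene had the same standard error, 0.35. A call thus reflects the size of the difference and not that gene's own spread, and 1 deviant array can give it. The test called 66 genes for FOXA2 (0.7%) and 64 for HIF-1a (0.679%). Of these, 42 and 44 were genes more than 2-fold low on HIF-1a replicate 1 alone, such as Jak1, Cox11 and Erbin, named after their values were seen, so most of these calls rest on that array.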

How the data were processed

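Values deposited by the authors for 45281 probes on each of 12 arrays were linear, non-normalized intensity with a detection p-value, per the file headers. The software behind them was not given in the sources used here. A second table from the authors, with 26415 probes of processed linear intensity, served as an alternative, and how its background and scale were set is unknown.

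Intensities of the 12 arrays were background-corrected and quantile normalized by limma's neqc (limma 3.58.1, R 4.3.3, background inferred from the detection p-values, offset 16) on the log2 scale. A probe was kept where its detection p-value lay under 0.01 on 2 or more of the 8 hypoxia arrays, which left 16935, of which 14590 had 1 gene symbol in the platform annotation, 5 several and 2340 none here. Symbols were checked against RefSeq by Entrez ID (21542 probes matched, 0 updated). Each gene was its detected probe of highest mean, which left 9432 genes, 3568 of them with other detected probes. Promoters are from RefSeq, GRCm38.p6. No probe coordinates were used.

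Replicates were compared with lmFit and eBayes of limma, with transfection as a block (3 residual degrees of freedom) and Benjamini-Hochberg adjustment over all genes. The number of arrays limits the precision. A gene below background on all arrays of 1 replicate has a bound ("at least"), its mean on the bright side over that on the dim side, where each dim array counts at its lowest detected signal if the gene lay under that. Named genes were Foxa2, Hif1a, Siah2, Hes6, Sox9 and Kdm3a, the 15 largest differences in each direction among called genes that moved alike in all pairs, and up to 6 members per list, by smallest p. Other members are named where a list is described. 38 called genes with clone or predicted names were counted, not named. The members and 40 lists were chosen with earlier results of these data known. The epidermal differentiation complex, mesothelial and histone sets, the 3 promoter motifs, the lists given most room and the fit to the control and FOXA2 pairs were chosen after values of this comparison were seen. Alternatives changed background correction, scaling, filter, probe choice, pairing, slide and the pairs used.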

Additional observations from a re-analysis of the deposited data

Results flagged for a closer look

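The 4 pair differences (log2, replicate 2 minus replicate 1) of each named gene and list were searched for 1 pair far from the other 3 by Dixon's criterion. Of 282 sets of 4 values 18 were marked, and chance marks about 1 in 20. All are given as values, and their causes were not tested.

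The FOXA2+HIF-1a pair, which holds the brightest array, stood alone most often: Cxcl2 at 0.91 against 2.17 to 2.35 in the other pairs, Klf2 at -2.59, Spc24 at 0.86, Igf2 at -1.01, Sesn1 at 1.85, Slc39a8 at -1.15, Cd14 at 0.58, Vim at -1.37 and the median of the mesothelial genes at -0.16. The HIF-1a pair, whose replicate 1 array had 88 genes low alone, stood apart for Pkp2 at 1.03, Sesn3 at 2.02, Lipa at -0.0072, Rrp9 at -1.20 and Bbc3 at 0.73. The FOXA2 pair did so for Trf at -1.09, Cldn7 at 0.79 and Mvd at 1.36, and the control pair for Nsdhl at 1.09.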

How the results depend on the processing

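The 1573 genes called became 974 with slide 2 arrays only, 470 to 1912 without 1 pair (674 without the control pair and 470 without the FOXA2 pair) and 2679 with the control and FOXA2 pairs only, an alternative chosen after seeing the data. In the other 11 fits, the count stayed within 1.5 times the reported one. With slide 2 arrays only, the bright FOXA2+HIF-1a replicate 1 array stood alone against the 4 replicate 2 arrays, without pairing. Replicate was mixed there with transfection and with whatever set that 1 array apart. The count of that fit is therefore not a measure of the replicate difference free of slide. With slide as a block the median was 0.14 for cornified envelope, -0.12 for YAP/TAZ, -0.13 for actin, 0.31 for ATF4, 0.35 for NRF2 and 0.12 for NF-kB genes, and Tcf7l1 reversed to -0.087 (adjusted p = 0.775). Here only the FOXA2+HIF-1a pair gives the difference. With median scaling, which moved the median of all genes to 0.05, it was -0.10 for actin, 0.30 for quiescence, 0.28 for ATF4, 0.23 for HIF targets outside glycolysis and 0.34 for NRF2 genes. Without 1 pair, ERK medians ran from -0.57 to -0.32, quiescence from 0.11 to 0.19 and HIF targets from 0.12 to 0.22. With the control and FOXA2 pairs only, the ERK median was -0.29. The causes were not tested. With the replicate number as the block, no paired analysis was possible because that number is itself the comparison. The reported fit pairs arrays by transfection instead, and without this pairing 1547 genes were called. Dim signal limits genes near background.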
